A study of Homo sapiens with 24 samples.

Results

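MS023, which blocks type I arginine methyltransferases, was added to the LSD1 inhibitor GSK-LSD1 in MV4-11 cells, an established human acute myeloid leukaemia line of monocytic type that carries the MLL-AF4 fusion. The comparison sets the 3 libraries that received MS023 with GSK-LSD1 against the 3 that received GSK-LSD1 alone, 6 of 24 poly(A) RNA-seq libraries in 8 groups of 3, chosen by their labels. Both groups therefore carry the LSD1 inhibitor, and the labels give every library the genotype PRMT5 +/+. GSK-LSD1 alone was used at 10 nM for 3 days per the study's text, while no dose or time was given for any group with MS023, so a difference in dose or time between the groups cannot be told apart from MS023. Values without GSK-LSD1 come from 3 libraries with MS023 alone and 3 with DMSO, the solvent control, which share no library with the comparison. The labels do not say whether replicates A, B and C were separate cultures. The p-values of gene and transcript tests reflect only the spread among libraries, pooled over all 8 groups, which may be technical.

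Type I arginine methyltransferases, of which PRMT1 is the main cellular enzyme, place asymmetric dimethyl marks on histones and on many RNA-binding proteins, splicing regulators among them. LSD1, the product of KDM1A, demethylates histone H3 as part of the CoREST repressor complex, which GFI1 recruits in myeloid cells. Inhibitors of LSD1 are known to raise monocytic genes in leukaemia cells with MLL fusions.

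In units of 1e6 estimated counts, the gene table held 42.3, 45 and 40.0 for GSK-LSD1 libraries A, B and C, and 34.7, 43.1 and 34.6 for the combination. All per-library values below follow that order. Levels are counts per 1e6 counts (CPM), and levels of different genes are not corrected for length. CD33, FLT3, HOXA9 and MEIS1, markers of such a line, lay between 53.4 and 660 CPM in the 6 libraries, LYZ between 1803 and 2557 CPM and MPO between 5.97 and 7.48 CPM, while CD3E, MS4A1, EPCAM, KRT19 and COL3A1 had 0 counts in all 6. Summed over 16 erythroid and megakaryocyte markers, levels were 51.3 to 55.6 CPM in the combination and 44.0 to 50.4 CPM with GSK-LSD1. Combination library B stood apart. RRP9, a small nucleolar RNA protein, was at 0.812 CPM in it against 29.2 to 35 CPM in the other 5, and the first principal component, with 42.7% of the variance, placed it at 22.8 against -5.70 to -2.79. The second, with 33.6%, placed the 3 combination libraries at -9.70, 1.34 and -14.4 and the GSK-LSD1 libraries at 3.96, 10.5 and 8.29.

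Adding MS023 to GSK-LSD1 changed many genes by small amounts. CD74, HLA-DRA and CIITA, genes of class II antigen presentation, rose, and many genes of the cell cycle, amino acid supply and DNA repair fell. Of 16640 genes tested with edgeR's quasi-likelihood test, 1808 were called at an adjusted p below 0.05, which is 10.9%. Of these, 560 (3.37% of genes tested) were higher and 1248 (7.5%) lower in the combination. In all, 40 were at least 2-fold higher and 10 at least 2-fold lower, and the median size of a called change was 0.24 on the log2 scale, with 89.5% below 0.5. The 2 groups had no overlapping libraries for 98.5% of called genes, against 32% of all genes tested. The split between directions depended on the setting. Lower genes made up 69.0% of calls, but 52.5% (864 higher, 954 lower) without combination library B, 60.2% with DESeq2's size factors in edgeR, 60.4% with no filter on low counts, 58.6% with only the 6 libraries in the fit, 55.5% without GSK-LSD1 library B and 61.5% with DESeq2. The number of calls fell to between 465 and 1192 when any library other than combination B was left out.

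**Figure D1:**
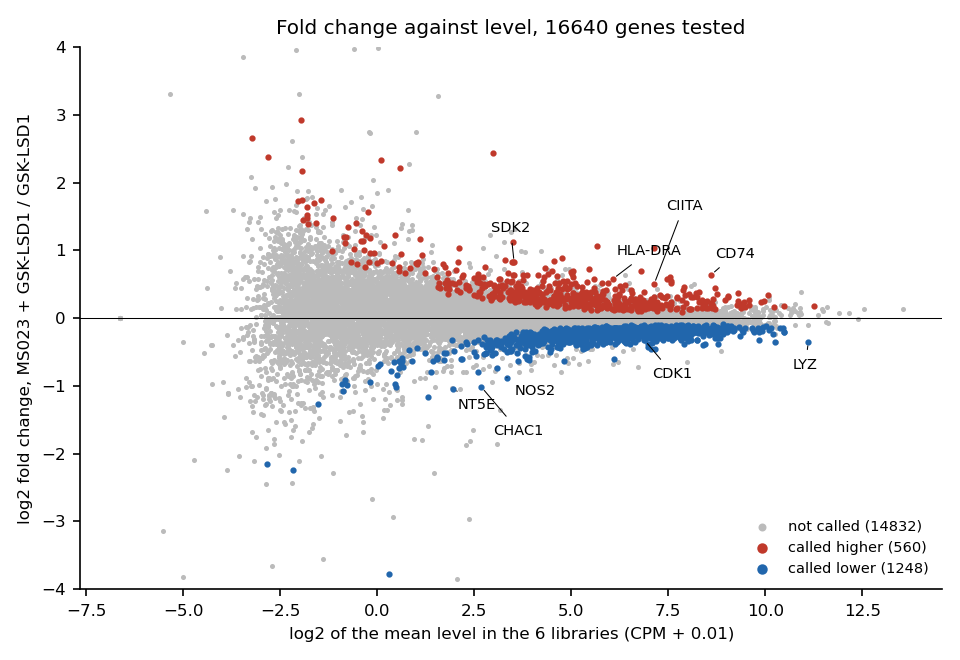
Log2 fold change of the combination over GSK-LSD1 (y axis) against the log2 mean level in the 6 libraries (x axis) for 16640 genes, with 67 genes outside the y axis. Called genes (560 higher in red, 1248 lower in blue) lie mostly within 0.5 of 0 on the y axis, and the larger called changes are at low levels.

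Called genes differed from the rest in kind and level, as a description. Protein coding genes had 482 higher and 1233 lower calls among 14316 tested, and pseudogenes 53 higher and 2 lower among 1435. The median level with GSK-LSD1 was 70.0 CPM for genes called lower, 25.7 CPM for genes called higher and 18.1 CPM for all genes tested. The median GC content of the most abundant transcript was 44.7% for genes called lower, 49.5% for genes called higher and 49.0% for all.

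The class II antigen presentation pathway presents peptides on the surface of myeloid cells. CIITA is its master transcriptional activator, HLA-DRA a chain of the presenting molecule, and CD74 the invariant chain that guards it during transport. CD74 (ENSG00000019582, GRCh38 chromosome 5, 150401637 to 150412929) was at 309, 300 and 310 CPM with GSK-LSD1 and 475, 500 and 454 CPM in the combination. The log2 fold change was 0.64 ± 0.0899 (SE, with adjusted p = 0.000362 in edgeR). Every combination library lay above every GSK-LSD1 library. HLA-DRA was at 52.2, 54.4 and 56.0 CPM and rose to 79.6, 88.1 and 74.6 CPM, with a log2 fold change of 0.58 ± 0.0941 (SE, with adjusted p = 0.00113 in edgeR), again with no overlap. CIITA (chromosome 16, 10866222 to 10943021) was at 114, 110 and 125 CPM and rose to 160, 163 and 171 CPM, with a log2 fold change of 0.50 ± 0.0756 (SE, with adjusted p = 0.000633 in edgeR). The same genes were raised by GSK-LSD1 itself, against DMSO, by 1.44 (CD74), 2.26 (HLA-DRA) and 1.60 (CIITA) on the log2 scale. HLA-DPB1 had low levels, 0.289, 0.344 and 0.411 CPM against 0.724, 2.37 and 2.19 CPM, with a log2 fold change of 2.33 (edgeR adjusted p = 0.0252). Its call was lost when any library but combination A was left out (adjusted p 0.0586 to 0.0989).

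Of 18 antigen presentation genes, 16 were tested, with 4 called higher and 1 lower and a median log2 fold change of 0.14, beside -0.008 for all genes tested. The 4 higher are the class II genes above, and no other tested class II member of the list was called. Log2 fold changes of the tested members ran from -0.62 to 2.33, with 11 above 0 and 5 below. The class I genes HLA-B and B2M did not pass the test, with log2 fold changes of -0.04 and 0.00 (edgeR adjusted p = 0.731 and 0.973), and HLA-C was listed at 0 in all 6 libraries. NLRC5, the activator of class I genes, fell from 65.6, 63.3 and 61.8 CPM to 54.8, 56.7 and 55.1 CPM, with a log2 fold change of -0.19 (edgeR adjusted p = 0.0116). Summed over the list, levels were 1459 to 1569 CPM in the combination and 1238 to 1269 CPM with GSK-LSD1.

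The promoter of CD74 is shown because class II promoters carry a Y box, the site of the factor NF-Y, here searched as ATTGG on both strands in the 250 bases before the RefSeq start. The letters occurred in 32% of 35116 such windows and in 7 of the 11 windows found for tested antigen presentation genes. The window of CD74 (chr5:150412911-150413160, minus strand, RefSeq on GRCh38.p14, read 5′ to 3′) held 1 match, in capitals, 53 bases before the start.
CD74: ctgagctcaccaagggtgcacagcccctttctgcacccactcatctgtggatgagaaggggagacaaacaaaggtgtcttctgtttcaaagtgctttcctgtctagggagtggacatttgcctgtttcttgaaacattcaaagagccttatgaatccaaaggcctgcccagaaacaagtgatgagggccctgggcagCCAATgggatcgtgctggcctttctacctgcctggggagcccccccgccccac

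**Figure D2:**
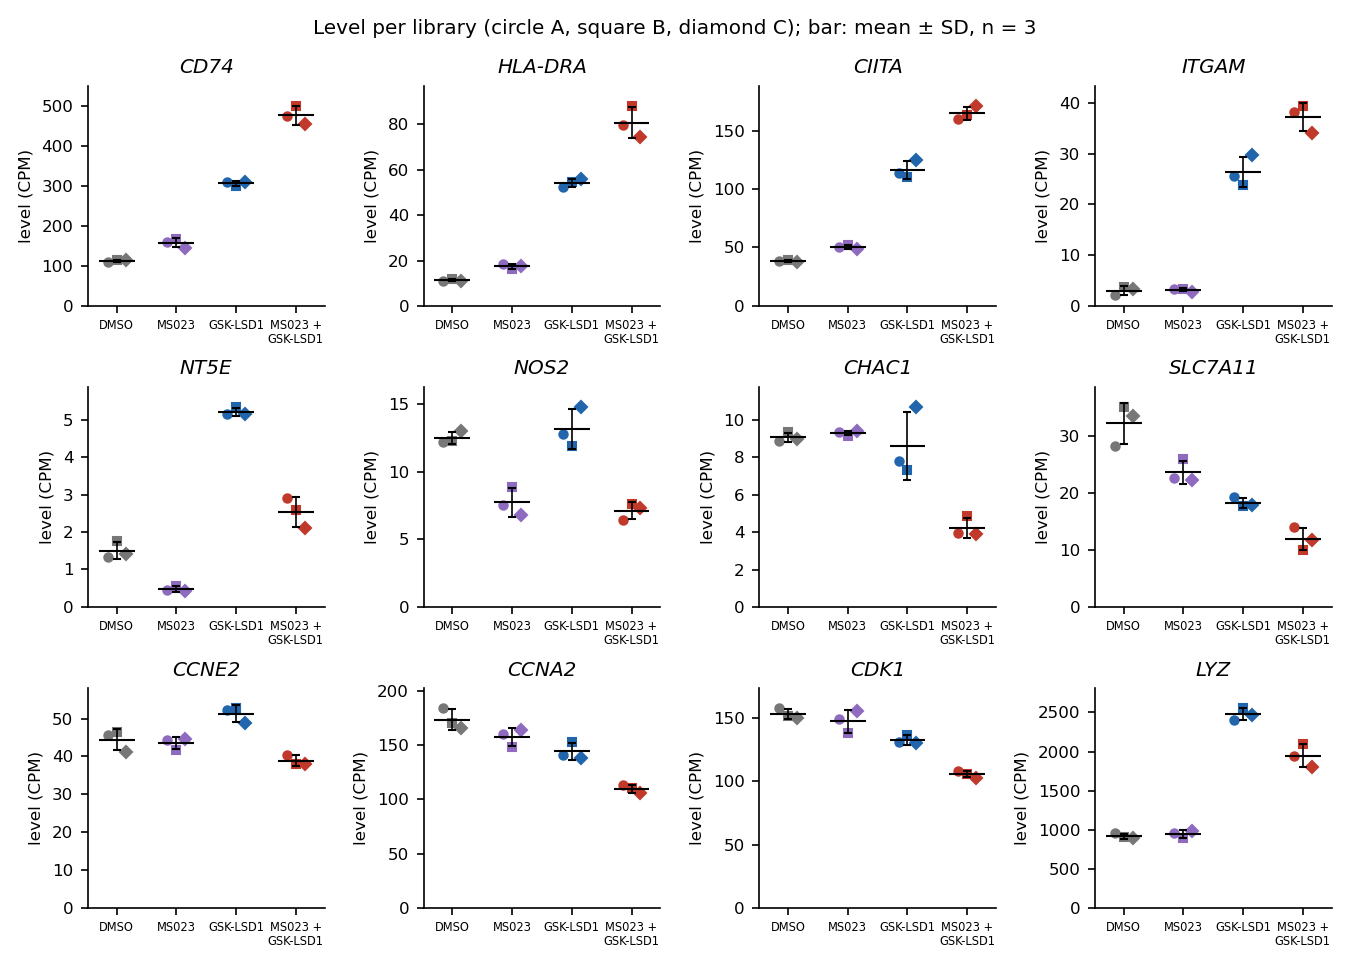
Levels of 12 genes in CPM (y axis, from 0) in each library of the DMSO, MS023, GSK-LSD1 and combination groups, with the mean and SD (n = 3) as bars. CD74, HLA-DRA and CIITA are highest in the combination, CHAC1 is lowest there, and LYZ lies between its DMSO and GSK-LSD1 levels.

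Many amino acid supply genes fell. The list of ATF4 and amino acid response genes, targets of the factor that answers amino acid shortage and endoplasmic reticulum stress, had 26 members tested, of which 13 were called lower and 0 higher, beside 7.5% of all genes tested called lower, and its median log2 fold change was -0.27. CHAC1, which degrades glutathione, was at 7.80, 7.31 and 10.7 CPM with GSK-LSD1 and 3.97, 4.85 and 3.90 CPM in the combination. The log2 fold change was -1.02 ± 0.262 (SE, with adjusted p = 0.0184 in edgeR), and the call was lost without GSK-LSD1 C or combination A or C (adjusted p 0.0635 to 0.0875). SLC7A11, the cystine transporter, went from 19.3, 17.7 and 17.9 CPM to 14.0, 10.0 and 11.8 CPM, with a log2 fold change of -0.62 (edgeR adjusted p = 0.0132). Its call was lost without GSK-LSD1 A or B or combination B or C (adjusted p 0.0523 to 0.0662). TRIB3, a pseudokinase induced by ATF4, was at 14.2, 13.4 and 17.3 CPM against 8.75, 10.2 and 9.90 CPM (log2 fold change -0.64, edgeR adjusted p = 0.0482), a call lost under 10 of 13 alternatives, each of the 6 leave-outs among them (adjusted p 0.0811 to 0.160). PSAT1, an enzyme of serine synthesis, was at 173, 178 and 150 CPM against 124, 127 and 112 CPM (log2 fold change -0.46, edgeR adjusted p = 0.0227), and lost its call without GSK-LSD1 A or B or combination A or C (adjusted p 0.0512 to 0.125). With only libraries of at least 5 CPM of RRP9 the calls of SLC7A11, TRIB3 and PSAT1 were lost too (0.0888, 0.0566 and 0.0540). None of these genes overlapped between the groups.

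The other 9 called members were ASNS, ALDH1L2, SLC7A5, PCK2, PHGDH, PSPH, SLC3A2, SLC7A1 and CEBPG, at log2 fold changes of -0.45 to -0.19. They include the enzymes of serine synthesis PHGDH and PSPH, asparagine synthetase, and the subunits SLC7A5 and SLC3A2 of a leucine transporter. ATF4 itself had -0.12 (edgeR adjusted p = 0.298) and DDIT3 -0.26 (adjusted p = 0.312), and 5 members were above 0 without a call, ATF5 at 0.47 (adjusted p = 0.0926) the highest. The count of lower calls was 5, 4 and 10 without GSK-LSD1 A, B and C and 7, 11 and 3 without combination A, B and C, while the median stayed between -0.31 and -0.24. Outside the list, ATF3, an AP-1 family factor of the stress response, was at 9.07, 8.00 and 10.5 CPM against 7.71, 5.73 and 5.35 CPM (log2 fold change -0.55, edgeR adjusted p = 0.0247), a call lost without GSK-LSD1 A or C or combination B or C (adjusted p 0.0724 to 0.138), with only libraries of at least 5 CPM of RRP9 (0.0712) or with only the 6 libraries in the fit (0.0718). The CARE letters TGATGNAA, bound by ATF4 dimers, occurred on either strand in 2 of 21 windows of tested list members and in 3.1% of all windows.

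Many cell cycle genes fell, by smaller amounts. Among 26 G2 and M phase genes, 14 were called lower and 0 higher, again beside 7.5% of all genes, and all 26 had a log2 fold change below 0 (median -0.19). CDK1, the mitotic kinase (chromosome 10, 60778331 to 60794852), was at 131, 137 and 130 CPM with GSK-LSD1 and 108, 106 and 103 CPM in the combination. The log2 fold change was -0.33 ± 0.0441 (SE, with adjusted p = 0.000289 in edgeR). CCNA2, its cyclin A partner, went from 141, 153 and 138 CPM to 113, 110 and 106 CPM, with a log2 fold change of -0.39 ± 0.0534 (SE, with adjusted p = 0.000307 in edgeR). CCNB1, cyclin B1, went from 117, 122 and 110 CPM to 95.2, 98.4 and 88.5 CPM (log2 fold change -0.31, edgeR adjusted p = 0.00374, and 0.0505 without GSK-LSD1 B). CENPA, the centromeric histone, had -0.29 (edgeR adjusted p = 0.00654, and 0.0556 without GSK-LSD1 A). The groups did not overlap for these 4 genes. MKI67, the proliferation marker Ki-67, was at 402, 391 and 375 CPM against 383, 382 and 386 CPM, with a log2 fold change of -0.02 (edgeR adjusted p = 0.873).

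Of 26 S phase genes, 12 were called lower and 0 higher, with a median of -0.17. CCNE2, cyclin E2, which drives entry into S phase, was at 52.4, 52.8 and 48.8 CPM with GSK-LSD1 and 40.5, 38.0 and 38.0 CPM in the combination (log2 fold change -0.40, SE 0.0559, edgeR adjusted p = 0.000327), with no overlap. PCNA, the clamp of the replicative polymerases, went from 278, 299 and 280 CPM to 243, 241 and 216 CPM (log2 fold change -0.29, edgeR adjusted p = 0.0132, lost without GSK-LSD1 B or combination C at 0.103 and 0.0897). CCNE1, cyclin E1, had -0.27 and FEN1, which removes primers of lagging strands, -0.26. Both calls (edgeR adjusted p = 0.0239 and 0.0174) were lost without GSK-LSD1 A or B or combination C (adjusted p 0.0671 to 0.138). Lower calls in the S phase list numbered 2, 1 and 13 without GSK-LSD1 A, B and C and 5, 11 and 2 without combination A, B and C (medians -0.20 to -0.13), and in the G2 and M phase list 4, 4, 12, 7, 11 and 6 in the same order (medians -0.20 to -0.16). GSK-LSD1 itself, against DMSO, had 18 lower calls in the S phase list and 9 in the G2 and M phase list. That comparison called 2494 of all 16640 genes tested lower, more than the 1248 called lower here.

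Promoters of G2 and M phase genes are known for the CHR element, searched as TTTGAA on both strands. It occurred in 13.3% of all windows, in 12 of the 21 windows found for tested G2 and M phase genes and in 1 of 22 for S phase genes. Among called members with a window the share was 7 of 11. The windows below were chosen, after values were seen, among members with a match and at most 30 exon bases: CDK1 (chr10:60778081-60778330), CDC20 (chr1:43358731-43358980) and KIF11 (chr10:92592880-92593129), all on the plus strand, were called lower and MKI67 (chr10:128126424-128126673, minus strand) was not, so matches stood on both sides of the threshold. CDC20, an activator of the anaphase-promoting complex, had a log2 fold change of -0.26 (edgeR adjusted p = 0.0411) and KIF11, the spindle kinesin, -0.17 (adjusted p = 0.0358). All sequences are 250 bases before the RefSeq start on GRCh38.p14, 5′ to 3′, with matches in capitals.
CDK1: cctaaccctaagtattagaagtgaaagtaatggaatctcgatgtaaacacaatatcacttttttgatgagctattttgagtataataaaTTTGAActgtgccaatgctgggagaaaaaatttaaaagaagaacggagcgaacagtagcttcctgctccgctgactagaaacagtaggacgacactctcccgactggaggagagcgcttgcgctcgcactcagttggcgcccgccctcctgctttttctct
CDC20: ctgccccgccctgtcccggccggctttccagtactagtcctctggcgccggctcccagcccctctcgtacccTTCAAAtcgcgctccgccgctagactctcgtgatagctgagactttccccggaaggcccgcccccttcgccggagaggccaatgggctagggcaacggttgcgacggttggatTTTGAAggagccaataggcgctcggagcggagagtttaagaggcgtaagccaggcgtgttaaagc
KIF11: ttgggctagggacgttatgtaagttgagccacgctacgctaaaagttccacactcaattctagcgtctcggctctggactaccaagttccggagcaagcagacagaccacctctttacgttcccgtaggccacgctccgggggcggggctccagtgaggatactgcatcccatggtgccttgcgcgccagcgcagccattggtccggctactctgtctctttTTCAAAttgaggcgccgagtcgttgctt
MKI67: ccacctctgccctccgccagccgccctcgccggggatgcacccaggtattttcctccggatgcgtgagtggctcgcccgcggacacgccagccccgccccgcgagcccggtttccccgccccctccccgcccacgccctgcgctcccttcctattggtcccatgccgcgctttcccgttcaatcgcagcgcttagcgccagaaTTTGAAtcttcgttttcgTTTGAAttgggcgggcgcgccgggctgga

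Lists of DNA repair and p53 target genes also held lower calls. Of 20 DNA repair genes, 8 were called lower and 0 higher (median -0.12), beside 7.5% of all genes tested called lower. BRCA2, a mediator of homologous recombination, was at 171, 169 and 161 CPM with GSK-LSD1 and 142, 132 and 135 CPM in the combination, a log2 fold change of -0.29 (edgeR adjusted p = 0.000306). Of 29 p53 target genes, 7 were called lower and 0 higher (median -0.14), and PMAIP1, which encodes the pro-apoptotic NOXA, went from 24.3, 24.5 and 27.8 CPM to 20.4, 17.9 and 16.0 CPM (log2 fold change -0.50, edgeR adjusted p = 0.00190). CDKN1A, the p21 inhibitor of cyclin-dependent kinases, had a log2 fold change of -0.30 (edgeR adjusted p = 0.0179), lost under every leave-out but that of combination B (adjusted p 0.0517 to 0.0898). MYC, the growth-promoting transcription factor, was at 206, 206 and 219 CPM and rose to 252, 263 and 241 CPM (log2 fold change 0.26, edgeR adjusted p = 0.0161, 0.0526 without GSK-LSD1 B and 0.0595 with only libraries of at least 5 CPM of RRP9). Of 26 MYC and ribosome biogenesis genes MYC was the only member called, and the median was -0.09.

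Of 22 cholesterol synthesis genes, 6 were called lower, again beside 7.5% of all genes, HMGCS1 and IDI1 among them (log2 fold changes -0.26 and -0.27), with a median of -0.14. That count was 3 with DESeq2's size factors in edgeR, 4 without combination B and 0 when any other library was left out. DNA repair calls were 2 to 4 and p53 target calls 2 to 5 when 1 library was left out, and 4 and 5 with DESeq2's size factors. With only libraries of at least 5 CPM of RRP9 the DNA repair calls were 4.

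**Figure D3:**
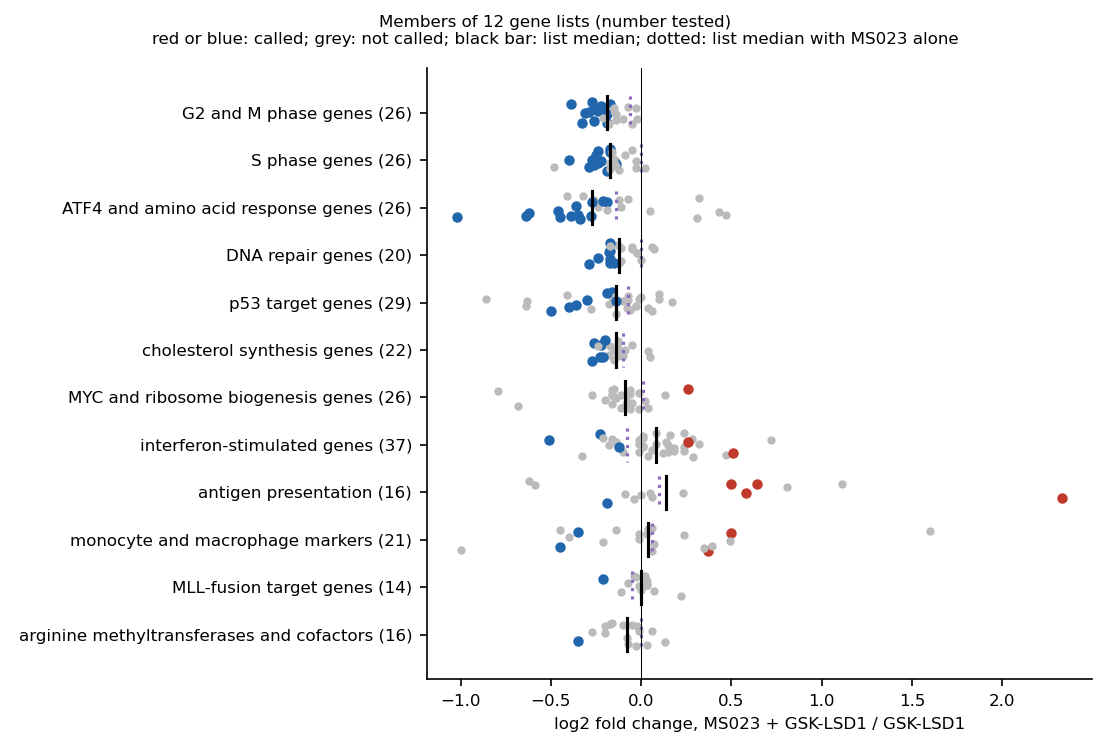
Log2 fold change of the combination over GSK-LSD1 (x axis) for the tested members of 12 gene lists, with called members in red or blue, the list median as a black bar and the median with MS023 alone dotted. The G2 and M phase members all lie below 0 with a median of -0.19, and the 4 called class II genes lie above 0.

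Genes that mark monocytic differentiation did not move one way. The monocyte and macrophage list had 21 tested members, 2 called higher and 2 lower, with a median of 0.04. GSK-LSD1 against DMSO had 15 higher calls and 1 lower in the same list, with a median of 1.43. Among all 16640 genes tested it had 2925 higher and 2494 lower calls. LYZ, lysozyme, an antibacterial enzyme of monocytes, was at 2403, 2557 and 2471 CPM with GSK-LSD1 and 1945, 2099 and 1803 CPM in the combination, a log2 fold change of -0.35 ± 0.0613 (SE, with adjusted p = 0.00193 in edgeR). MPEG1, a pore-forming protein of macrophages, went from 151, 151 and 161 CPM to 109, 119 and 110 CPM, with a log2 fold change of -0.45 ± 0.0867 (SE, with adjusted p = 0.00344 in edgeR). GSK-LSD1 itself, against DMSO, raised LYZ by 1.43 and MPEG1 by 1.80, values read from the same GSK-LSD1 libraries as the falls. In DMSO LYZ was at 954, 901 and 894 CPM and MPEG1 at 41.5, 47.3 and 43.7 CPM, below every combination library. ITGAM, the CD11b integrin chain, was at 25.7, 23.8 and 29.7 CPM and 38.2, 39.4 and 34.1 CPM (log2 fold change 0.50, edgeR adjusted p = 0.0377), beside 3.10 for GSK-LSD1 against DMSO. CD68, a lysosomal protein of macrophages, was at 38.2, 35.8 and 39.3 CPM against 48.3, 51.4 and 46.7 CPM (log2 fold change 0.37, edgeR adjusted p = 0.0455). The ITGAM call was lost when any library but GSK-LSD1 C was left out (adjusted p 0.0688 to 0.155), and the CD68 call when any of the 6 was left out (0.0747 to 0.156). The calls of LYZ and MPEG1 were kept under all 13 alternatives.

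Among other genes that GSK-LSD1 raises, FCRLA, an Fc receptor-like protein, was at 63.5, 70.3 and 75.5 CPM against 96.3, 106 and 91.6 CPM (log2 fold change 0.49, edgeR adjusted p = 0.0424, lost when any of the 6 libraries was left out, at 0.0656 to 0.145). CD86 had 0.35 (adjusted p = 0.220, and 0.0226 with only the 6 libraries in the fit), VCAN 0.07 (0.886) and IGF1 0.05 (0.843). Of 12 tested granulocyte and granule genes, MPO and MS4A3 were called lower at -0.28 and -0.26 and CSF3R, the G-CSF receptor, higher at 0.24 (edgeR adjusted p = 0.0127, 0.00894 and 0.0403). CSF3R lost its call when any library but GSK-LSD1 C was left out (0.0546 to 0.159), MPO without GSK-LSD1 A or combination C (0.0724 and 0.0577), with no filter on low counts (0.0550) and with only the 6 libraries in the fit (0.103), and MS4A3 without GSK-LSD1 B or combination C (0.0606 and 0.0682). With only libraries of at least 5 CPM of RRP9 the calls of ITGAM, CD68, FCRLA and CSF3R were lost as well (0.0545 to 0.123). In a comparison that shares no library with this one, GSK-LSD1 added to the PRMT5 inhibitor PRT220 (3 nM) for 3 days, 3227 genes were called higher, of which MS023 on GSK-LSD1 called 206 higher and 155 lower (median 0.05), beside 3.37% higher and 7.5% lower among all genes tested. Of the 3123 genes called lower there, it called 71 higher and 541 lower (median -0.08). PRT220 libraries A, B and C had low RRP9 (1.61, 1.2 and 1.73 CPM before scaling). With PRT220 and GSK-LSD1 only library C did (1.23 CPM), so GSK-LSD1 cannot be fully told apart from low RRP9 in that comparison.

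CHAC1, TRIB3, SLC7A11 and ATF3 were among the 15 largest falls of called genes of at least 5 CPM whose groups did not overlap, and the other 11 belonged to no gene list used here. NT5E, the cell-surface nucleotidase CD73 that makes adenosine, was at 5.15, 5.34 and 5.14 CPM with GSK-LSD1 and 2.90, 2.60 and 2.10 CPM in the combination, a log2 fold change of -1.04 ± 0.261 (SE, with adjusted p = 0.0160 in edgeR). The call was lost without GSK-LSD1 A or B or combination C (adjusted p 0.0539 to 0.0897). NOS2, the inducible nitric oxide synthase, went from 12.8, 11.9 and 14.8 CPM to 6.43, 7.65 and 7.31 CPM, with a log2 fold change of -0.88 ± 0.147 (SE, with adjusted p = 0.00130 in edgeR). BMP2, a growth factor of the TGF-beta superfamily, had -0.79 (adjusted p = 0.0107, and 0.0737 and 0.0652 without GSK-LSD1 B and combination C). ABCA1, the cholesterol exporter, went from 11.2, 10.4 and 9.82 CPM to 6.75, 6.52 and 5.66 CPM (log2 fold change -0.73, edgeR adjusted p = 0.00171). TST, a mitochondrial sulfurtransferase, had -0.63 (edgeR adjusted p = 0.000192). REEP3, a protein that shapes the endoplasmic reticulum, went from 86.0, 83.4 and 79.6 CPM to 56.5, 56.7 and 49.9 CPM, with a log2 fold change of -0.61 ± 0.0659 (SE, with adjusted p = 9.60e-05 in edgeR). CCND1, cyclin D1, had -0.61 (adjusted p = 0.0103, and 0.0595 and 0.0733 without GSK-LSD1 B and combination C). SIGLEC9, an inhibitory sialic acid receptor of myeloid cells, had -0.56 (adjusted p = 0.0250, lost without GSK-LSD1 B or C or combination A or C at 0.0627 to 0.135), and PGAP4, an enzyme of GPI anchors, had -0.56.

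Among those that rose, SDK2, an adhesion molecule, was at 7.60, 7.84 and 9.51 CPM with GSK-LSD1 and 13.4, 15.6 and 15.0 CPM in the combination, a log2 fold change of 0.82 ± 0.119 (SE, with adjusted p = 0.000467 in edgeR). GSDMB, a gasdermin, went from 5.27, 4.88 and 5.09 CPM to 8.31, 7.86 and 9.64 CPM (log2 fold change 0.76, edgeR adjusted p = 0.000735). ZMAT1, a zinc finger protein, went from 15.9, 16.0 and 17.7 CPM to 26.0, 23.0 and 28.8 CPM (log2 fold change 0.65, edgeR adjusted p = 0.00272). These calls held in all 13 alternatives. TBC1D30, which has a GTPase-activating domain, was at 30.4, 29.4 and 39.2 CPM against 65.9, 74.6 and 66.4 CPM, with a log2 fold change of 1.07 (edgeR adjusted p = 0.0218) that lost its call without GSK-LSD1 A or B or combination C (0.0644 to 0.0989) or with only libraries of at least 5 CPM of RRP9 (0.0838). LSP1, a leukocyte actin-binding protein, was at 76.8, 73.9 and 102 CPM against 132, 151 and 124 CPM (log2 fold change 0.69, edgeR adjusted p = 0.0461, lost under every leave-out but that of GSK-LSD1 C at 0.0926 to 0.181, and at 0.127 with only libraries of at least 5 CPM of RRP9). SEPTIN1, a septin, had 0.71 (lost without GSK-LSD1 A or B or combination C at 0.0532 to 0.0756) and C19orf38 had 0.66 (lost without GSK-LSD1 A or B at 0.0534 and 0.0672). CANX, SH3D21, FCGR2C, ISY1-RAB43 and the pseudogenes H3P6, LDC1P, RPL22P1 and RPL36AP37 were also called higher with large changes. CANX and SH3D21 lost their calls when any of the 6 libraries was left out (adjusted p 0.0574 to 0.164), and SH3D21 also with only libraries of at least 5 CPM of RRP9 (0.0911). FCGR2C, ISY1-RAB43, H3P6, RPL22P1 and RPL36AP37, and NME1-NME2 among the lower, are readthrough models, processed pseudogenes or a member of a gene family. Their reads may be shared with related genes, which was not measured, and their values are uncertain. The calls of RPL22P1 and RPL36AP37 held in all 13 alternatives. LDC1P (0.82) and NUDT16L2P (-0.61), annotated as unitary pseudogenes, kept theirs in 12 of 13.

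The genes of the drug targets mostly did not pass the test. KDM1A, which encodes LSD1, had a log2 fold change of -0.01 (edgeR adjusted p = 0.871), RCOR1, its CoREST partner, -0.10 (called at 0.0298 with only libraries of at least 5 CPM of RRP9) and GFI1 -0.05. In the LSD1-CoREST-GFI1 list, ZMYM2 and ZMYM3, zinc finger proteins of the complex, were the 2 called higher of 15, at 0.16 and 0.15. Of all genes tested 3.37% were called higher. ZMYM2 lost its call in 5 of 13 alternatives and ZMYM3 in 6. PRMT1 was at 355, 358 and 351 CPM against 313, 335 and 304 CPM, with a log2 fold change of -0.16 that missed the threshold (edgeR adjusted p = 0.0657). It passed under 4 of 13 alternatives, at 0.0201 with a term for the libraries with low RRP9 (log2 fold change -0.19), 0.0347 with only libraries of at least 5 CPM of RRP9, 0.0444 with only the 6 libraries in the fit and 0.0480 with DESeq2. PRMT6, another type I enzyme, was the only called member of 16 arginine methyltransferases and cofactors, at 30.0, 32.7 and 31.6 CPM against 25.5, 26.3 and 22.0 CPM (log2 fold change -0.35, edgeR adjusted p = 0.0104, and 0.0728 and 0.0779 without GSK-LSD1 B and combination C). PRMT3 had -0.17 (0.0827), CARM1 -0.10 (0.242) and PRMT5 -0.03. MS023 blocks the activity of type I enzymes, so their RNA does not check the treatment.

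In the remaining lists no more than 4 members were called in either direction, and their counts stand beside 3.37% of all genes tested called higher and 7.5% called lower. The called interferon-stimulated genes, of 37 tested, included SAMD9L and IFITM2, which were higher (0.51 and 0.26), and ISG15 and DTX3L, which were lower (-0.51 and -0.12). Of 31 SR and hnRNP splicing regulators, HNRNPA1 was called higher (0.18) and HNRNPF, HNRNPR, SRSF1 and SRSF2 lower (-0.29, -0.21, -0.13 and -0.17), and of 18 Sm and snRNP proteins SNRPB, SNRPD3 and SF3B3 were lower (-0.23, -0.19 and -0.17). GCLM, a subunit of the enzyme that starts glutathione synthesis, fell by 0.30 on the log2 scale, and TXNRD1, thioredoxin reductase, by 0.15. These 2 genes and SLC7A11 were the called members of 15 NRF2 and glutathione genes. H2AZ1, a histone variant of promoters, had -0.33, H3-3A -0.23 and H2BC21 0.40. CDK6 (-0.21) was the only MLL-fusion target called of 14, and HOXA9 and MEIS1 were not called. Among markers of other cell types, KRT8 (0.42), TUBB3 (-0.40), TRAC (-1.02) and IGLL1 (-0.92) were called, the last 2 at no more than 1.93 CPM in any of the 6 libraries. Of the genes named here from these lists that were tried under 13 alternatives, HNRNPF, GCLM, H2AZ1 and H3-3A kept their calls in all, and the others lost theirs in at least 1.

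The response to MS023 was also read without GSK-LSD1, where MS023 against DMSO called 375 genes, 2.25% of those tested, 148 higher and 227 lower. Of the 1808 genes called in the combination against GSK-LSD1, 1643 (90.9%) had the same sign with MS023 alone, as did 67.0% of all genes tested. Among them 213 were called on both backgrounds, 84 higher and 129 lower, all with the same sign, which is 11.8% of the calls with GSK-LSD1 and 56.8% of those without. The median log2 fold change of genes called higher with GSK-LSD1 was 0.31 there and 0.16 with MS023 alone, and that of genes called lower was -0.22 and -0.09. Called genes were chosen in the former comparison, so a smaller value in the second is no measure of a difference. MS023 alone gave log2 fold changes of 0.49 for CD74, 0.62 for HLA-DRA, 0.39 for CIITA, 0.71 for SDK2, 0.27 for MYC, -1.67 for NT5E, -0.70 for NOS2 and -0.38 for REEP3, all called (edgeR adjusted p = 0.00287 to 0.0309). Of the 6 libraries without GSK-LSD1, DMSO C and MS023 A and C had low RRP9, and with only libraries of at least 5 CPM of RRP9 the count was 9. That setting leaves 1 library with MS023 alone, whose spread is taken from the other groups. The count was 185 to 328 when 1 library was left out. With GSK-LSD1, combination library B had low RRP9 and no library of GSK-LSD1 alone did. Low RRP9 was thus more frequent with MS023 on both backgrounds, and its part in the shared signs was not tested.

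**Figure D4:**
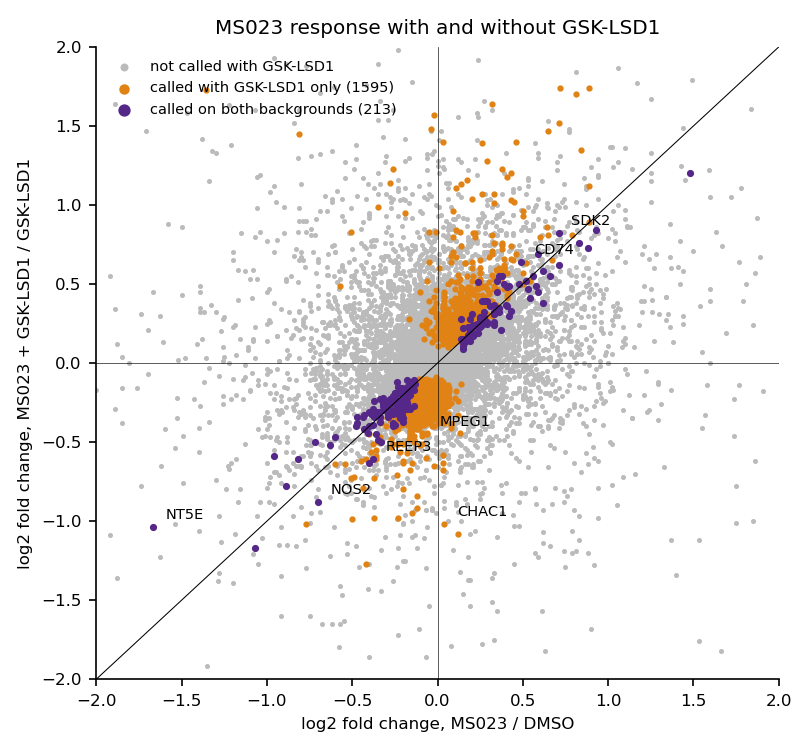
Log2 fold change of MS023 with GSK-LSD1 over GSK-LSD1 (y axis) against that of MS023 over DMSO (x axis) for each gene, with 205 genes outside the axes and the line of equal change. The 213 genes called on both backgrounds lie near the line in the same 2 quadrants, and CHAC1 lies near 0 on the x axis and at -1.02 on the y axis.

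The difference between the 2 responses was tested gene by gene as an interaction. edgeR called 0 of 16640 genes (smallest adjusted p = 0.301), with 1356 at an unadjusted p below 0.05. DESeq2 called 19, with 1222 at an unadjusted p below 0.05. With only libraries of at least 5 CPM of RRP9, again with 1 MS023 library, edgeR called 2, and when any library of the 4 groups was left out it called 0 or 1. The median standard error of an interaction was 0.12, and edgeR recovered 63 of 100 simulated interactions of 0.5 on the log2 scale and 85 of 100 of 1, so a missed call does not show equal responses. Among genes described above, CCNE2 had -0.40 with GSK-LSD1 and an interaction of -0.38, LYZ -0.35 and -0.39, GCLM -0.30 and -0.29, and CHAC1 -1.02 and -1.05, each with an edgeR adjusted p above the threshold. The median of the S phase list was -0.17 with GSK-LSD1 and 0.00 without, that of the G2 and M phase list -0.19 and -0.06, and that of the ATF4 list -0.27 and -0.14. With MS023 alone no gene of either cell cycle list was called, beside 2.25% of all genes tested. With so few calls in all, their absence there cannot show whether the 2 responses differ or are alike.

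Transcripts of 11425 genes were compared as shares of each gene's estimated counts, since splicing regulators are substrates of type I enzymes. limma's diffSplice called 520 genes (4.55%), but in simulated data the same step made 83 false calls beside 97 of 200 recovered. A test of each transcript's log2 ratio to the gene's other transcripts, chosen after that was seen, made 5 false calls and recovered 61 of 200, and it called 37 genes (0.324%), 27 of them shared with diffSplice. With all 6 libraries but 1 it called 21 to 56. The leading transcript rose in 19 of the 37 genes and fell in 18, its share moved by at least 5 percentage points in 30, and 2 of the 37 were also called in the gene table. All adjusted p-values for transcripts are limma's, with Simes' method per gene.

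RAP1A, a small GTPase of cell adhesion, showed a shift between 2 transcripts with identical coding parts. RAP1A-202 made up 30.3%, 27.1% and 29.7% of the gene's counts with GSK-LSD1 and 42.6%, 47.0% and 43.0% in the combination, a log2 ratio change of 0.95 (limma adjusted p = 6.05e-05). It starts 77565 bases downstream of RAP1A-201, the transcript with the opposite change, and ends 3578 bases farther downstream. With MS023 alone its share went from 30.8%, 30.3% and 29.2% to 41.9%, 40.0% and 41.5% (limma adjusted p = 0.00235). LRIF1, a nuclear receptor-interacting factor, shifted between coding forms. LRIF1-202, with 699 coding bases against 2307 in LRIF1-201, fell from 34.3%, 31.3% and 34.4% to 22.1%, 18.8% and 21% (log2 ratio change -0.94, limma adjusted p = 0.00103, and 0.00604 with MS023 alone). DCTN5, a dynactin subunit, had DCTN5-201 at 45%, 44.3% and 45.2% against 57.1%, 52.1% and 57.4% (0.62, limma adjusted p = 0.00149), with the opposite change in a retained-intron transcript. SDHC, a subunit of succinate dehydrogenase, had SDHC-202 at 49.6%, 48.9% and 46.4% against 58.2%, 57.3% and 58.3% (0.56, limma adjusted p = 0.00149), with the opposite change in a transcript annotated for nonsense-mediated decay.

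ADGRE5, the leukocyte adhesion receptor CD97, had ADGRE5-202 at 58.8%, 59.7% and 55.6% against 43.0%, 46.0% and 45.9% (-0.76, limma adjusted p = 0.000720), with the opposite change in ADGRE5-203, which has 2226 coding bases in place of 2358. SAP18, a subunit of a histone deacetylase complex and of the exon junction, had SAP18-203 at 18.2%, 20.8% and 20.9% against 9.1%, 12.5% and 10.3% (-1.07, limma adjusted p = 0.00230, and 0.388 with MS023 alone). NUDT5, a nucleotide hydrolase, had NUDT5-207 at 51.0%, 50.5% and 51.6% against 60.0%, 59.4% and 58.8% (0.49, limma adjusted p = 0.00402). RPLP0, a ribosomal protein, had RPLP0-202 at 5.3%, 4.9% and 5.0% against 7.5%, 7.7% and 7.7% (0.63, limma adjusted p = 0.000720). In these genes and the 4 above the groups did not overlap, as in each of the 37 called genes. Leading transcripts were chosen for small p-values, which favours no overlap, and no share over all genes tested was computed. TLR10-208 was listed at 24.3%, 33.3% and 25.2% with GSK-LSD1 and at 0 in the combination, in a gene of 159 to 198 counts per library.

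**Figure D5:**
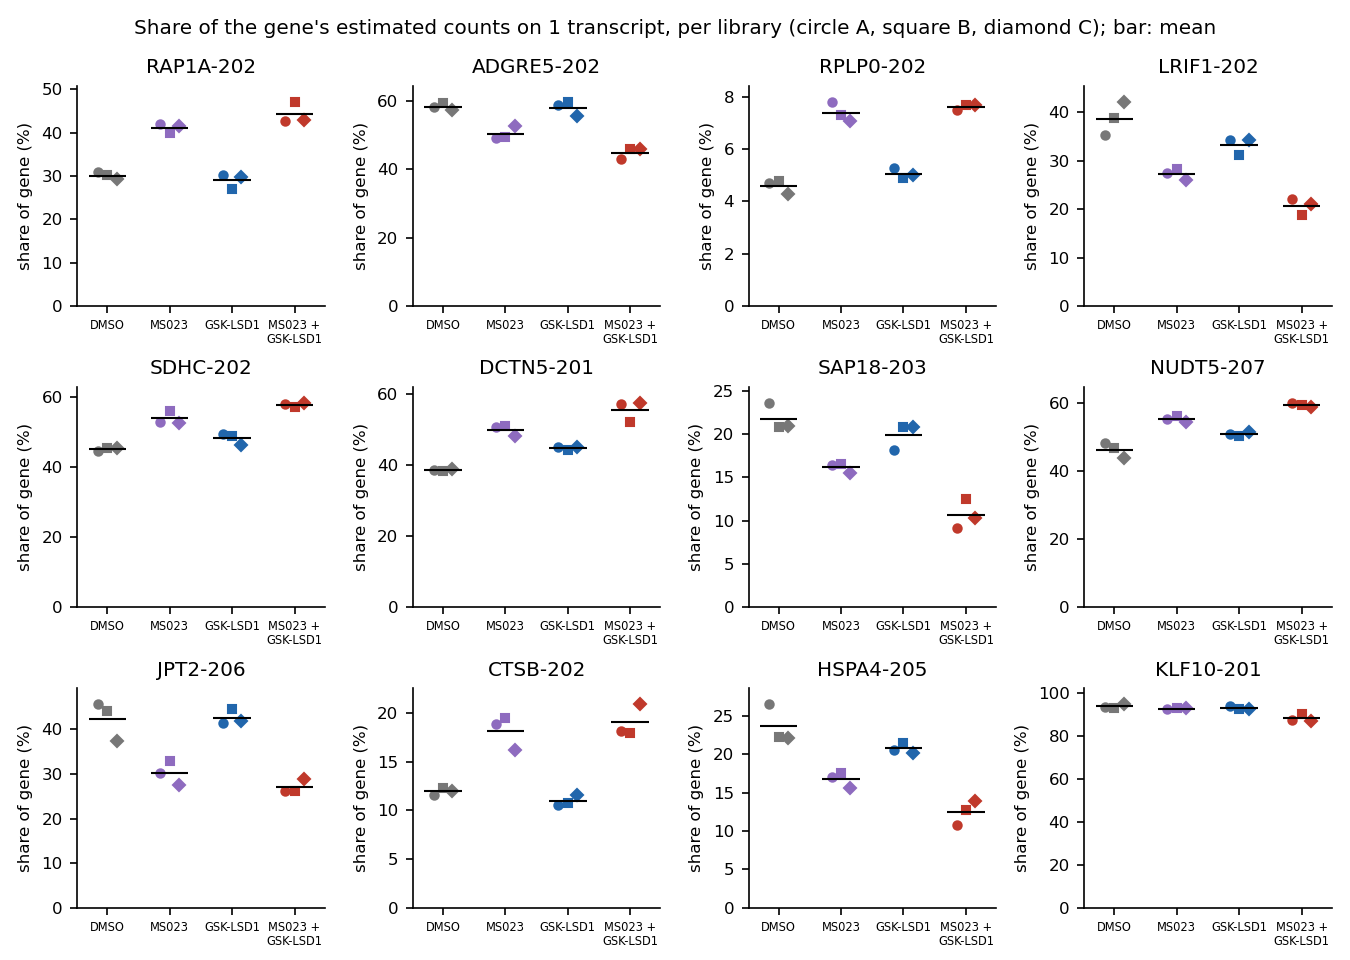
Share of a gene's estimated counts on 1 transcript (y axis, percent, from 0) in each library of the 4 groups, for 12 called genes, with the mean as a bar. The genes are those with the smallest limma p-values after TLR10, which was left out. RAP1A-202 rises from 27.1% to 30.3% with GSK-LSD1 to 42.6% to 47.0% in the combination, and LRIF1-202 falls, with the MS023 libraries shifted from DMSO in the same direction.

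Without GSK-LSD1 the ratio test called 26 genes (0.228%), 9 of which were among the 37. Of the 37 leading transcripts, 31 (83.8%) had the same sign with MS023 alone, as did 59.8% of the leading transcripts of all genes. The groups without GSK-LSD1 did not overlap, in the same direction, for 21 of the 37, against 10.0% of all genes. As in the gene table, the part of low RRP9 in these shared directions was not tested. The interaction was called in 2 genes, TLR10 and HSPA4L (limma adjusted p = 0.00767 and 0.0312), the second chosen for that value alone, with 552 at an unadjusted p below 0.05. TLR10-208 was listed at 0 in all 6 libraries without GSK-LSD1, so no fall could be seen there. Retained-intron transcripts held 5.54%, 5.28% and 5.39% of counts with GSK-LSD1 and 5.83%, 5.23% and 6.27% in the combination, a difference of 0.37 percentage points (two-sided exact permutation p = 0.40, of which 0.1 is the smallest the design allows) that was 0.65 without combination B and 0.12 without combination C.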

How the data were processed

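Poly(A) RNA of MV4-11 cells was sequenced with unstranded libraries, per the labels' protocols. The authors deposited a gene table and a transcript table of estimated counts (expected counts), a unit read from the values, which are not whole numbers. The submitters' processing notes name the GRCh38 build, STAR 2.7.3a, Salmon 1.2.1, DESeq2 1.28.1 and R 4.0.0 without their roles, and the annotation release was not given in the sources used here. Gene positions and transcript structures are from GENCODE 29.

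Counts were rounded and tested in R 4.3.3 with edgeR 4.0.16 (quasi-likelihood test, TMM scaling, filterByExpr, Benjamini-Hochberg adjustment over 16640 of 38048 genes), all 24 libraries in 1 fit with a coefficient per group. Calls are at adjusted p-values below 0.05. The interaction is the combination minus GSK-LSD1 minus MS023 plus DMSO, on the log2 scale. Transcript usage used limma 3.58.1, on 167049 of 178398 transcripts that GENCODE 29 pairs with a gene. The ratio test used a pseudocount of 2 and was chosen after the data were seen. DESeq2 1.42.0 was an alternative. On simulated data edgeR recovered 83 of 100 changes of 0.5 on the log2 scale and 93 of 100 of 1 in this comparison, with 5 false calls. All simulated counts, those of transcripts included, took their spread from edgeR's own fit and held no library that stood apart. Of the called changes in the real data, 89.5% were below 0.5, a size that was not simulated.

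Named genes are the 15 largest called changes per direction with at least 5 CPM and no overlap, up to 4 called members of each list, or 2 where none was called, and a set of drug target and differentiation genes. The members and lists were chosen with earlier results of these data known. Of 24 pairs of libraries within groups, 0 were identical. Some list members are not reported here.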

Additional observations from a re-analysis of the deposited data

How the results depend on the processing

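Of the alternative values computed for the results and named genes, 1798 were labelled the same and 122 counts or medians moved. A call, or any count at all, was lost in 432 and gained in 36. The same meant the same side of the threshold for a gene, and a shift within a set margin for a count or median. Reversal, at 0, was scored only for genes called in either fit. Genes without a call could change sign, as KDM1A did (-0.05 to 0.02). All 1808 called genes that were tested again kept their sign under each alternative. The 1808 calls became 1146 without a filter on low counts and 2945 with a term for the libraries with low RRP9 (under 5 CPM), and 465 to 1818 when 1 library was left out, with the low value without GSK-LSD1 B and the high value without combination B. MS023 alone, with 375 calls, gave 599 with that term, 9 with only libraries of at least 5 CPM of RRP9 (1 library with MS023 alone), 0 with only its 2 groups in the fit, 626 with DESeq2, and 185 to 328 in leave-outs. The interaction, with 0 calls, gave 2 with only libraries of at least 5 CPM of RRP9, 19 with DESeq2 and 0 to 1 in leave-outs. Transcript usage by diffSplice gave 284 to 489 in leave-outs and the transcript ratio 21 to 56. The cause of these moves was not tested. Replicate letters are shared between the groups, but same-letter libraries did not deviate together (correlations of 0.03, 0.07 and 0.02 over 10204 genes), so the letters were not treated as pairs. With the replicate block the comparison gave 1468 calls (454 higher, 1014 lower), MS023 alone 294 and the interaction 0. In this design 3 libraries a group limit the precision, with a median standard error of 0.09 on the log2 scale.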

Other observations

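In each of the 37 genes with a changed transcript ratio, the leading transcript was paired with a transcript of opposite change. The latter was the one with the smallest limma p-value and did not have to pass the test itself. In 18 pairs the rising transcript ended at least 500 bases downstream of the falling one. It ended at least 500 bases upstream in 5 and within 500 bases in 14. Of the 18 pairs, 15 moved the same way with MS023 alone. No share for all genes tested was computed for these counts, so they cannot be read as a shift of transcript ends. Across 9420 genes the mean share of counts on the farthest 3′ end was 64.31%, 64.45% and 64.35% with GSK-LSD1 and 64.12%, 64.48% and 63.96% in the combination, a difference of -0.18 percentage points (two-sided exact permutation p = 0.4, with 0.1 the smallest possible). With MS023 alone the difference from DMSO was 0.20 (exact permutation p = 0.4).

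Mitochondrial transcripts, 13 of 13 tested, had 0 calls and a median log2 fold change of -0.11, with summed levels of 4428 to 5932 CPM in the combination and 5245 to 6332 CPM with GSK-LSD1.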
